A study of Mus musculus with 4 samples.

Results

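The genes described here are 10 known targets of the transcription factor p53: Cdkn1a, Ccng1, Gtse1, Btg2, Bax, Bbc3, Perp, Phlda3, Trp53inp1 and Sesn1. All probe sets that carry one of these symbols alone were taken, which gave 16 probe sets for 9 of the 10 genes, among 12393 named genes in all. No probe set carried the symbol Bax in the annotation used here, so Bax was not analysed here, and neither was Trp53, the gene of p53 itself. The arrays were made from mouse embryonic fibroblasts, connective tissue cells cultured from embryos, of the strain the labels call C57/BJ6. There were 4 libraries: total RNA and ribosome-bound RNA, called polysome RNA below, each from cells labelled Npm1+/+ (wild type) and Npm1+/- (heterozygote, with 1 of 2 copies of the nucleophosmin gene inactivated). Each group was a single array, so no value has a replicate error, no test was possible and every difference is one between libraries. The labels name no treatment, and do not say whether each culture came from 1 embryo or a pool. Polysome RNA came from sucrose gradient fractions. The series asks whether loss of Npm1 skews which RNAs are held on ribosomes.

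p53 is a transcription factor that accumulates when DNA is damaged, when ribosome production is disturbed or when an oncogene is active. It then switches on genes that stop the cell cycle, prepare the cell for death, repair DNA or limit oxidative stress, and it also switches on Mdm2, the ubiquitin ligase that removes it. In fibroblast cultures this response is known for its part in growth arrest and senescence, and nucleophosmin is known to bind Arf, a product of Cdkn2a that restrains Mdm2. p53 binds DNA at a response element made of 2 copies of a short palindromic motif, placed side by side or separated by a few bases.

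To show what such an element looks like in these genes, the RefSeq promoter windows (GRCm38.p6, 250 bases before to 50 after a transcript start) were searched for the p53 response element, 2 decamers without a spacer, with at most 1 mismatch over the 20 bases. The motif reads the same on both strands, so one scan covers both. Of the 10 genes 8 had a window, 13 windows in all, while Perp and Trp53inp1 had no entry. An element lay in 3 of the 13 windows, 1 each for Cdkn1a, Ccng1 and Gtse1, against 29 of all 32851 windows (0.0883%). With a spacer of up to 13 bases allowed it was 4 of 13, Bax added, against 359 windows (1.09%). These genes were chosen as p53 targets, so the matches describe the list and are no result of the arrays, and no match in the windows of Btg2, Phlda3, Bbc3 and Sesn1 says only that these letters are not there. Cdkn1a and Gtse1 each also had a window without an element, for Cdkn1a that of a start further downstream (chr17:29093519-29093818). For Cdkn1a and Ccng1, the pair whose array values lay on opposite sides, the 250 bases before the start are shown from the window with the element. For Gtse1 the element alone is shown, as it begins 1 base before the start. Capitals mark the element.
Cdkn1a, chr17:29090729-29090978, plus strand: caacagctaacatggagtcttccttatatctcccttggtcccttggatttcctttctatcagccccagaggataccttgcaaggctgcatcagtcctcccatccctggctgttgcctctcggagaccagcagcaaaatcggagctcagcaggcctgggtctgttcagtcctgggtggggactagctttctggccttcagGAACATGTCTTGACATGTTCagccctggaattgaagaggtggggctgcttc
Ccng1, chr11:40755287-40755536, minus strand: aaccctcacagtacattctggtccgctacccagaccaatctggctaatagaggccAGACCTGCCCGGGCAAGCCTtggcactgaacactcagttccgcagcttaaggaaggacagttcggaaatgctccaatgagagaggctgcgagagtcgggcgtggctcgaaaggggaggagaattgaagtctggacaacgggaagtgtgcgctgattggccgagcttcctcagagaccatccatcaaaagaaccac
Gtse1, chr15:85859945-85859964, plus strand: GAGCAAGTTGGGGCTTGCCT

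The deposited values are on the log2 scale, 1 per probe set and array, and array medians lay between 7.47 and 7.59. The floor below is the median of all values, 7.53, and the 7179 genes that reached it on at least 1 array are the genes compared; each gene is represented by its brightest probe set. As the only measure of technical spread, the SD of the disagreement between the 2 brightest probe sets of 2700 genes between genotype labels was 0.32 for total and 0.28 for polysome RNA. Npm1 itself did not follow the labels: its probe sets were 0.05 and 0.07 higher in the heterozygote-labelled total library and differed by -0.09 and 0.06 in polysome RNA. No source used here gives the position of these probes with respect to the targeted exons, and directions are therefore stated by label. Of the fibroblast markers 10 of 10 were above the floor on all 4 arrays.

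Between the genotype labels, most of the p53 targets read slightly higher in the heterozygote libraries, and none reached 2-fold. In total RNA 8 of 9 genes were above 0 (background 66.1% of genes), and 1 of 9 below 0 (background 33.6%), with a median difference of 0.34 against 0.19 for all genes. In polysome RNA 7 of 9 were above 0 (62.9%) and 2 of 9 below (36.6%), with a median of 0.40 against 0.11. Counted against the median gene, where 50% lie above by construction, it was 6 of 9 and 7 of 9. After a loess trend on signal level was subtracted, the member medians were 0.15 and 0.27, with 6 and 7 of 9 above 0. Past 2-fold there were 0 of 9 in either direction, in both RNAs; the background was 0.237% higher and 1.49% lower in total, and 0.0836% higher and 1.17% lower in polysome RNA. At 1.5-fold only Cdkn1a in total RNA counted as higher (background 7.42%), and no member did in polysome RNA (2.08%). The Cdkn1a difference of 0.60 lay just past this rule, which is 0.58 on the log2 scale, and was 0.41 relative to the median gene. By the same rule 0 of 9 were lower in either RNA (background 6.23% in total and 5.86% in polysome RNA). The choice of probe set matters here: when the probe sets of each gene were averaged, the medians were 0.18 against 0.17 in total RNA and 0.23 against 0.10 in polysome RNA, over the 8 genes that then reached the floor. Cell type markers were also compared between the labels: 8 of 10 fibroblast markers were below 0 in each RNA (medians -0.16 and -0.16). Of 9 measured macrophage markers 9 were above 0 in total and 7 in polysome RNA (medians 0.25 and 0.27), and 6 and 7 above the median gene. Of 14 macrophage markers only 3 reached the floor in each total library, against 7 in the wild-type and 9 in the heterozygote polysome library. Most values in total RNA were thus below the floor, and some markers were measured only through the heterozygote polysome library, where they are high. The part of either cell type in the differences of the p53 targets was not tested.

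**Figure D1:**
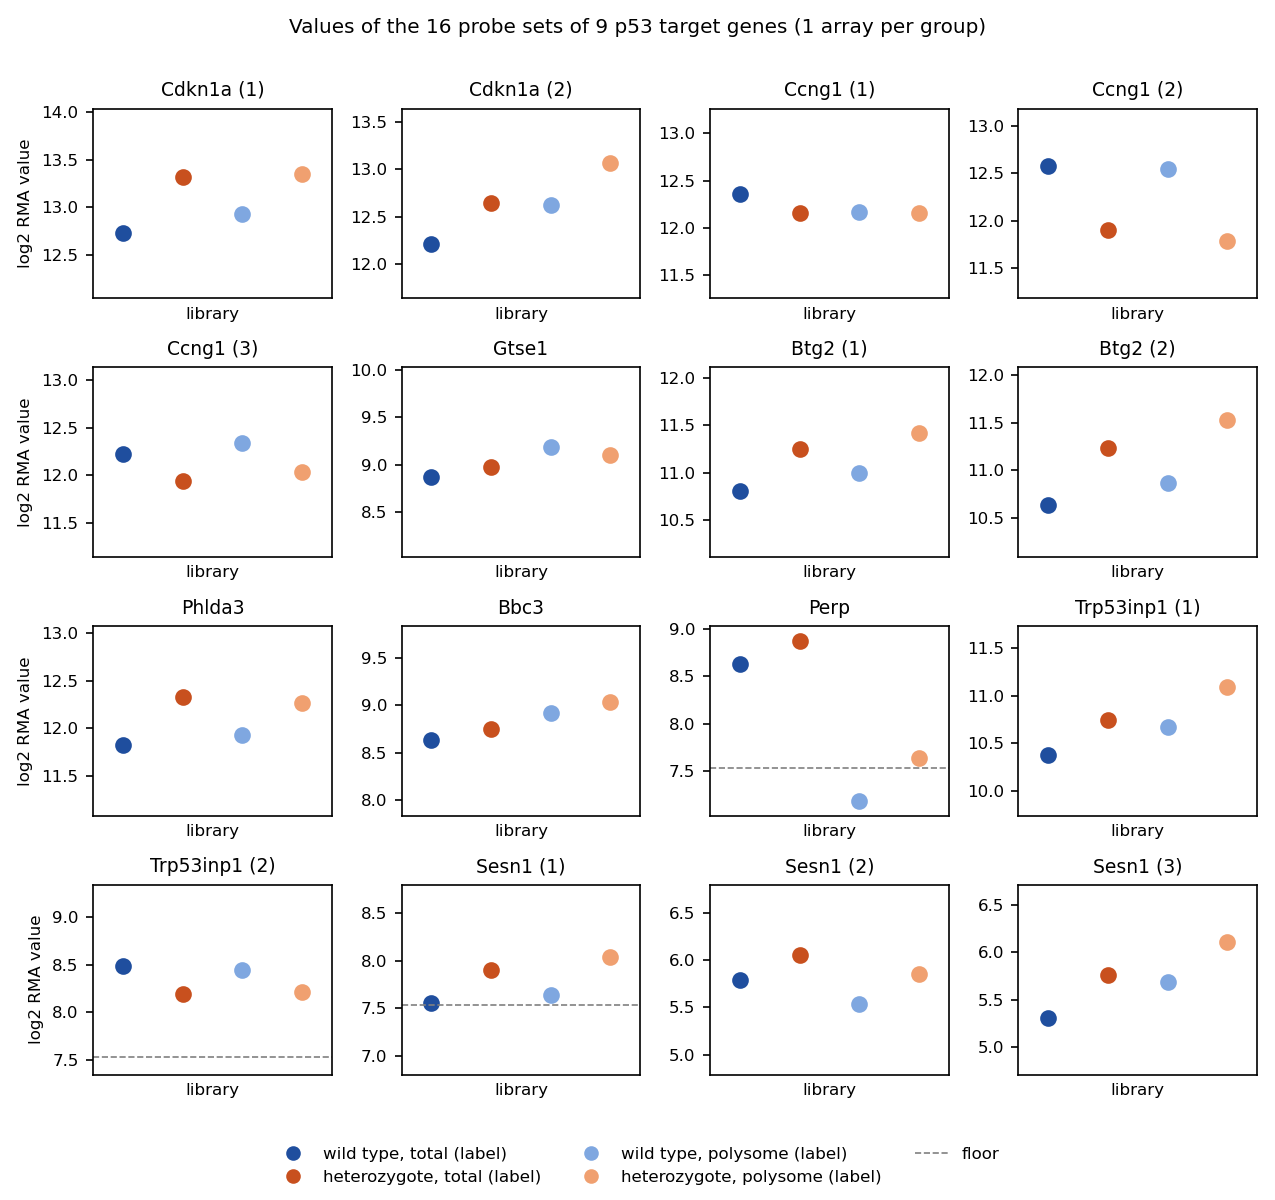
Log2 value of each of the 16 probe sets on each of the 4 arrays, 1 point per array, in panels that all span 2 log2 units; numbers in brackets order a gene's probe sets by brightness, and the dashed line is the floor of 7.53 where it falls in the panel. Cdkn1a, Btg2 and Phlda3 are higher in both heterozygote-labelled libraries, and Perp is lower in both polysome libraries. The 3 Ccng1 probe sets are lower in the heterozygote-labelled libraries, the brightest at only -0.02 in polysome RNA.

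Cdkn1a encodes p21, the inhibitor of cyclin-dependent kinases through which p53 halts the cell cycle. Its brighter probe set read 12.73 in the wild-type and 13.32 in the heterozygote total library, and 12.93 and 13.36 in the polysome libraries. Both heterozygote values exceeded both wild-type values, and the differences were 0.60 (1.51-fold) and 0.42 (1.34-fold). The other probe set read 12.21 and 12.64 in total and 12.63 and 13.07 in polysome RNA, differences of 0.43 and 0.44. Here the heterozygote total and wild-type polysome values were close. The difference of 0.60 exceeded that of 93.4% of genes and was 1.89 times the SD between probe sets; in polysome RNA the 0.42 exceeded 91.5% of genes.

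Ccng1 encodes cyclin G1, which recruits a phosphatase to Mdm2 and feeds back on p53. It was the one member below 0 in both RNAs and at every probe set, in contrast to Cdkn1a, whose promoter element is shown above beside that of Ccng1. The brightest probe set read 12.36 and 12.16 in total and 12.17 and 12.15 in polysome RNA, differences of -0.20 and -0.02. Both of these differences are within the SD between probe sets. A second read 12.58 and 11.90 in total and 12.55 and 11.78 in polysome RNA, differences of -0.68 (1.60-fold lower) and -0.77 (1.70-fold lower). The third gave -0.29 and -0.31. The probe sets thus share the sign and disagree on the size, and their mean put Ccng1 in polysome RNA at -0.36, where the brightest alone gave -0.02.

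Btg2 encodes an antiproliferative protein of the BTG/TOB family that is both a p53 target and an immediate early gene. Its brighter probe set read 10.81 in the wild-type and 11.25 in the heterozygote total library, and 11.00 and 11.42 in the polysome libraries. The other read 10.63 and 11.23, and 10.86 and 11.53. The heterozygote libraries read higher at both probe sets, by 0.44 and 0.42 at the first and by 0.59 and 0.67 (1.59-fold) at the second. Both probe sets read the same 4 libraries, so they are no replicates. Immediate early genes read higher in the same libraries: 19 of 20 measured were above 0 in total and 18 of 20 in polysome RNA (all genes 66.1% and 62.9%), and 16 and 17 of 20 above the median gene. Their medians were 0.45 and 0.43 against 0.19 and 0.11 for all genes, and 0.31 and 0.28 after a loess trend on level was subtracted. Fos, a subunit of the AP-1 factor, was past 2-fold in both RNAs (1.14 and 1.68), but in total RNA no gene of the list was once the trend or the median gene was subtracted. Atf3, a stress-induced factor, was past 2-fold in polysome RNA (1.11), where it read 7.17 and 8.28. Both its wild-type values were below the floor, as were those of Egr2 (7.17 in total and 7.24 in polysome RNA). Both genes thus entered the 20 only through the heterozygote libraries, where they are high, and the size of the Atf3 difference is uncertain. The log2 of the summed level of the immediate early genes was 14.80 and 15.24 in total and 14.73 and 15.18 in polysome RNA, and the part of this in the Btg2 values was not tested.

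Gtse1 encodes a protein of G2 and S phase that binds p53 and moves it out of the nucleus. It read 8.87 and 8.97 in total and 9.18 and 9.11 in polysome RNA, so the libraries lay close together, at 0.10 and -0.08. Both values are within the SD between probe sets, and the one in total RNA turned to -0.09 relative to the median gene and -0.07 after a trend on level was subtracted. G2 and mitosis genes, which peak in the same phases as Gtse1, had medians of -0.01 and -0.09 over 20 measured genes, against 0.19 and 0.11 for all genes. Above 0 were 9 and 8 of 20 (all genes 66.1% and 62.9%), and above the median gene 7 and 6. The list pointed both ways, from -1.12 to 0.60 in total and from -1.08 to 0.32 in polysome RNA. Some of its genes, such as Kif2c, reached the floor only in wild-type libraries, where they are high. When probe sets were averaged, 12 genes reached the floor. Their medians were 0.07 and -0.04, with 8 and 5 of 12 above 0. Among the 20 genes, Top2a, the topoisomerase that untangles chromosomes, was past 2-fold lower (-1.12 and -1.08), while its other probe set, below the floor, gave 0.10 and -0.31.

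The members that act in cell death differed among themselves. Phlda3, a repressor of the survival kinase Akt, read 11.82 and 12.33 in total and 11.93 and 12.27 in polysome RNA. Both heterozygote values lay above both wild-type values, by 0.51 (1.43-fold) and 0.34 (1.27-fold). Bbc3 encodes Puma, a BH3-only protein that frees Bax and Bak to open mitochondria. It read 8.63 and 8.75 in total and 8.92 and 9.03 in polysome RNA, differences of 0.12 and 0.11, close to the median gene, and below it in total RNA (-0.07 relative to it).

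Trp53inp1 encodes a nuclear protein that promotes p53-dependent arrest and death and also takes part in autophagy. Its brighter probe set read 10.37 and 10.74 in total and 10.67 and 11.09 in polysome RNA, differences of 0.36 and 0.42. The dimmer one, still above the floor on all arrays, read 8.49 and 8.20, and 8.44 and 8.22, differences of -0.30 and -0.22. The gene therefore has no settled direction in these data, and the mean of both probe sets gave 0.03 and 0.10. No other member had probe sets of opposite sign between genotype labels.

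Sesn1 encodes sestrin 1, which limits oxidative stress and restrains the growth kinase mTORC1. Its brightest probe set read 7.56 and 7.90 in total and 7.64 and 8.04 in polysome RNA, just above the floor, and the heterozygote libraries were higher by 0.34 and 0.40. The other probe sets were below the floor on all arrays and gave 0.27 and 0.45 in total and 0.32 and 0.42 in polysome RNA. All 3 probe sets had the same sign, at low signal. Perp encodes a membrane protein of desmosomes, the junctions of epithelia, that also acts in p53-dependent death. It was higher by 0.24 in total and 0.46 (1.37-fold) in polysome RNA, from 8.63 and 8.87, and 7.18 and 7.64, and the wild-type polysome value was below the floor.

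**Figure D2:**
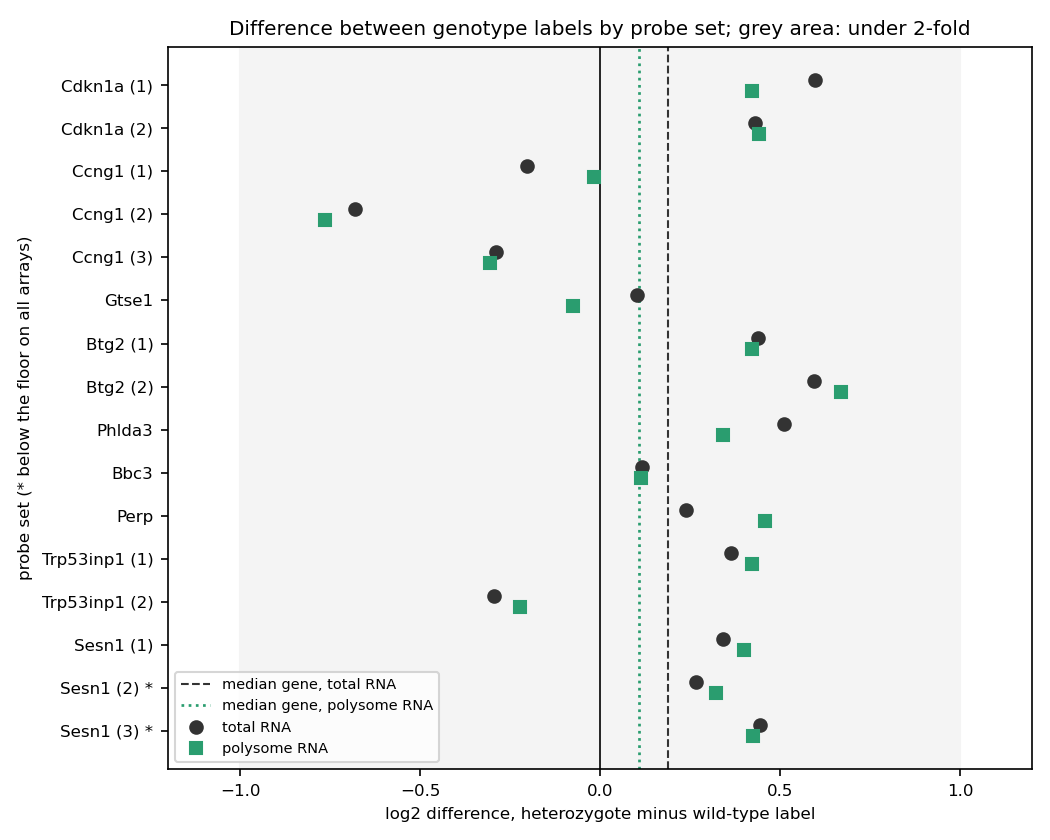
Log2 difference, heterozygote minus wild-type label, for each of the 16 probe sets in total RNA (circles) and polysome RNA (squares), with the median of all genes at 0.19 (dashed) and 0.11 (dotted). Of the 16 probe sets 12 lie above 0 in total and 11 in polysome RNA, the 3 of Ccng1 and the dimmer one of Trp53inp1 lie below 0 in both, and none leaves the grey area of under 2-fold.

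The other genes of the pathway had medians nearer to that of all genes. Of 42 further p53 targets 36 were on the array and 30 reached the floor; 20 of these 30 were above 0 in total RNA, 14 above the median gene, with a median of 0.15 that lay below the 0.19 of all genes. In polysome RNA 17 of 30 were above 0 and the median was 0.12 against 0.11. None of the 30 passed 2-fold between genotype labels. The targets with the largest differences pointed both ways. Zmat3, an RNA-binding protein induced by p53, read 10.45 and 11.23 in total and 10.82 and 11.51 in polysome RNA, differences of 0.77 (1.71-fold) and 0.69. Rrm2b, the p53-inducible subunit of ribonucleotide reductase, was at 0.53 and 0.61. Thbs1, the antiangiogenic matrix protein thrombospondin 1, was at -0.72 and -0.52, and its dimmer probe set at -1.05 and -1.24. Tap1, a peptide transporter of antigen presentation, was at -0.33 and -0.55. Mdm2 was at 0.21 and 0.17 at its brighter probe set and at -0.15 and -0.31 at the other, so it too has no settled direction.

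Among 18 regulators of p53, 14 were on the array and 9 reached the floor, with medians of 0.10 in total and 0.08 in polysome RNA. Hipk2, a kinase that phosphorylates p53, was at 0.63 and 0.89; the 2 next brightest of its probe sets gave 0.54 and 0.47 in total and 0.64 and 0.43 in polysome RNA. A further one above the floor gave 0.02 and -0.02, and one below the floor 0.16 and 0.07, so the size of the Hipk2 difference depends on the probe set. Atr, a kinase that senses stalled replication, was at -0.38 and -0.71, and reached the floor on 1 array only. The sensor protein gene Trp53bp1 was at -0.45 and -0.52. Cdkn2a, which encodes Arf and the kinase inhibitor p16, read 7.71 in the wild-type total library and 8.65, 8.64 and 8.72 in the heterozygote total, wild-type polysome and heterozygote polysome libraries. One library of 4 stands apart, so the gene was 0.94 higher (1.91-fold) by genotype label in total RNA and only 0.08 higher in polysome RNA. It rests on 1 probe set.

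**Figure D3:**
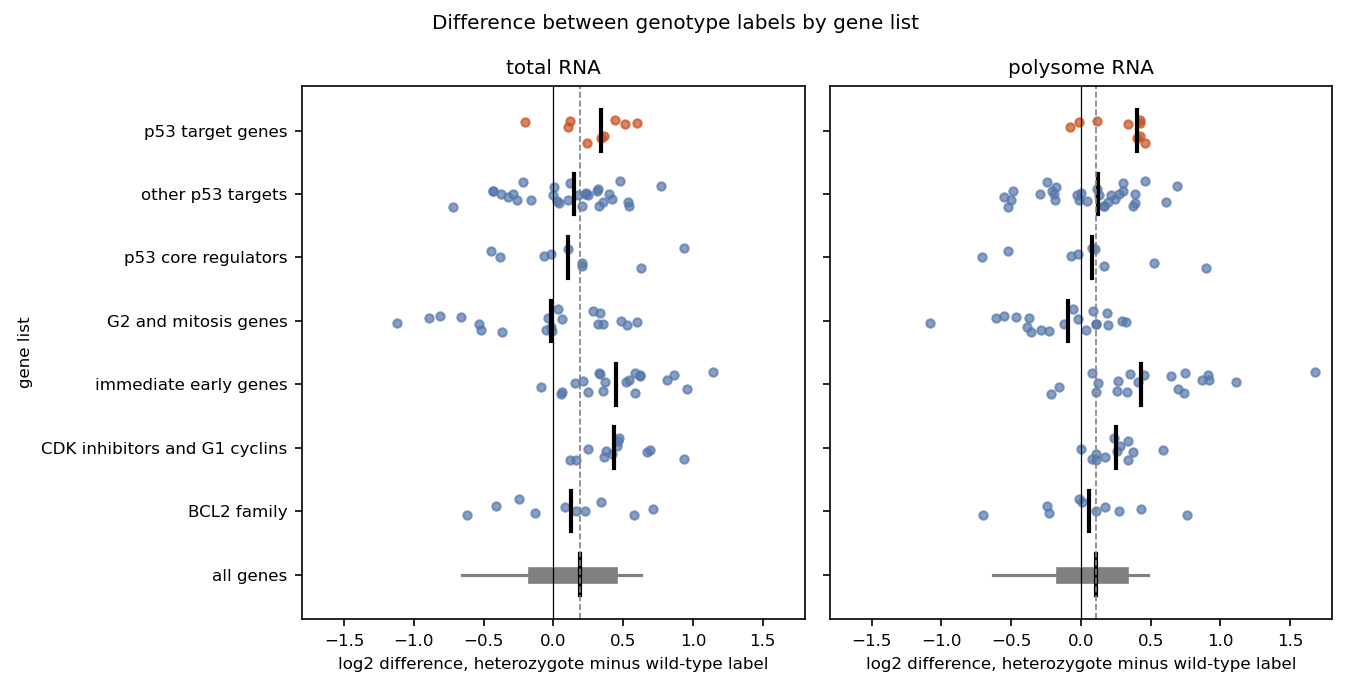
Log2 difference, heterozygote minus wild-type label, of single genes at or above the floor (points, spread vertically at random) by gene list in total RNA (left) and polysome RNA (right); black bars are medians, and the lowest row shows the 5th, 25th, 50th, 75th and 95th percentiles of all 7179 genes as a line, a thick bar and a black mark. The p53 target genes (orange) have medians of 0.34 and 0.40, the further p53 targets 0.15 and 0.12, and the dashed lines mark the median of all genes, 0.19 and 0.11.

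Between the RNA fractions, 8 of the 9 genes differed by less than 1.5-fold, and Perp read lower in both polysome libraries. Perp read 8.63 in the wild-type total and 7.18 in the wild-type polysome library, a difference of -1.45 (2.73-fold lower), and 8.87 and 7.64 under the heterozygote label, -1.23 (2.35-fold lower). Both polysome values lay below both total values. Only 0.125% and 0.195% of genes had lower differences, and the SD between probe sets was 0.28 and 0.24. Perp has 1 probe set, and in polysome RNA its signal was under or just above the floor, so the size of the fold is uncertain. It was the only member past 2-fold, 1 of 9 lower under each label (background 0.39% and 0.362%), with 0 of 9 higher (background 0.529% and 0.404%). The 1.5-fold rule gave the same member counts, against 1.56% and 1.35% of genes lower and 3.65% and 2.24% higher.

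Perp is best known in epithelia, and 12 epithelial and desmosome markers were looked at beside it. The log2 of their summed level was 11.28 and 11.07 in the wild-type total and polysome libraries and 10.95 and 10.85 in the heterozygote ones, with 3 of 12 above the floor in each total library and 2 of 12 in each polysome library. The defining markers Epcam (5.53 to 5.83) and Cdh1 (3.84 to 4.11) were below the floor on all 4 arrays. Krt19, a keratin of simple epithelia, was at -0.55 and -0.66 between fractions, and the junction genes Pkp1 and Jup at -0.32 and -0.19 under the wild-type and -0.06 and -0.05 under the heterozygote label. None of the 12 passed 2-fold. Macrophage markers read higher in the polysome libraries, with a log2 summed level over 14 genes of 10.42 and 10.70 in total and 11.64 and 12.03 in polysome RNA; the part of either cell type in the Perp values was not tested.

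The other members lay between -0.19 and 0.31 under the wild-type label and between -0.06 and 0.35 under the heterozygote label, and the medians over all 9 were 0.19 and 0.14 against 0.14 and 0.07 for all genes. Under the wild-type label 7 of 9 were above 0 and 2 below (background 75.6% and 24.4%), and under the heterozygote label 6 and 3 (65.1% and 34.9%). Trp53inp1 was at 0.30 and 0.35 at its brighter probe set but at -0.05 and 0.02 at the other. Bbc3 was at 0.29 under both labels. Cdkn1a was at 0.21 and 0.03, and at 0.41 and 0.42 at its other probe set. Centring the arrays on their medians took the median gene to 0.02 and -0.03 and turned Cdkn1a to -0.07 under the heterozygote label, so the sign of such small differences depends on the scaling. Among the further p53 targets, Igfbp3, a secreted binding protein of insulin-like growth factors, was past 2-fold higher in the polysome libraries, with 7.87 and 9.30 under the wild-type label (1.43) and 8.41 and 9.47 under the heterozygote label (1.06); centring the arrays on their medians left it past 2-fold under the wild-type label only. Gadd45a, a growth arrest gene, was at 0.85 and 0.84.

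**Figure D4:**
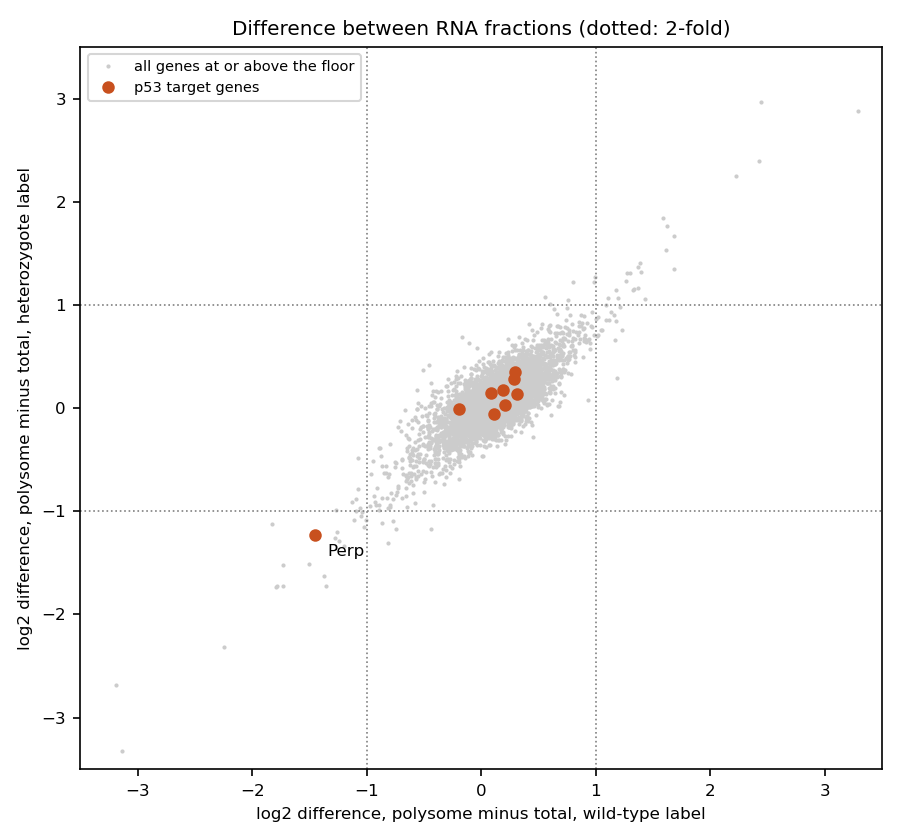
Log2 difference, polysome minus total label, under the wild-type label (horizontal axis) and the heterozygote label (vertical axis), 1 point per gene for the 7179 genes (grey) and the 9 p53 target genes (orange), with dotted lines at 2-fold. Perp lies at -1.45 and -1.23, and the other members lie within the cloud of all genes.

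No member differed past 1.5-fold between the fractions in its genotype difference. The association difference, which is polysome minus total under the heterozygote label minus the same under the wild-type label, lay between -0.18 (Gtse1) and 0.22 (Perp), and the SD between probe sets was 0.22. Cdkn1a and Phlda3 were at -0.17, at the lower side, and Ccng1 at 0.19, at the higher side, although its other probe sets gave -0.08 and -0.02 and the other probe set of Cdkn1a gave 0.01. Of the 9 members 0 passed 2-fold, as did 0% of all genes, and 0 passed 1.5-fold (background 0.167% higher and 0.139% lower). Of the 9 members 4 were above 0 (32.9%) and 5 below (67.1%), and the median was -0.00 against -0.07 for all genes. Cdkn2a, at -0.85, was the only one of the members, further targets and regulators past 1.5-fold, and it includes the low value of the wild-type total library.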

How the data were processed

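Gene expression was measured on 4 Affymetrix 3-prime arrays, 1 per group, and groups were taken from the titles of the samples. The deposited table holds log2 values of the authors for 22690 probe sets. RMA, affy 1.56.0 and R 3.4.3 are the tools listed in the submitters' processing notes, which give them no role. RMA corrects background, normalises between arrays and summarises probes, with settings not given in the sources used here. No detection calls were used, and with 1 array per group the precision is unknown. Of the probe sets, 20380 have 1 gene symbol in GEO's platform annotation and are no manufacturer controls, 691 have several and were not named. Differences of log2 values were computed with Python 3.11.15 and pandas 2.3.3 for 5 comparisons, and counted by a size rule of 2-fold (log2 difference of 1), after the calculation was tested on simulated data. Genes named besides the members were taken from those past 2-fold and at most the 4 largest differences of each list, and Npm1, Mdm2 and Cdkn2a were always given. Not every gene past 2-fold was named. Left out between fractions were the 6 macrophage markers past 2-fold higher under each label and, among others, the fibroblast marker Dcn (1.37 and 1.16). Epcam and Cdh1 were named outside this rule, as defining epithelial markers, and Ccnd2 because its probe sets disagreed in sign. Members, lists and rules were chosen with earlier results of these data known.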

Additional observations from a re-analysis of the deposited data

How the results depend on the processing

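Alternatives were averaging a gene's probe sets, leaving out _x_at and _s_at probe sets, dropping the floor, raising it to the 75th percentile (9.33), applying it to the mean, centring arrays on their medians, quantile normalisation, a loess trend subtracted (span 0.3), 1.5-fold and 3-fold rules and, chosen after seeing the data, subtraction of the median gene. The count of members past the size rule between genotype labels in total RNA became 1 higher with 1.5-fold. The single lower member between fractions, Perp, became 0 under each label with 3-fold and with the stricter floor, which leaves 5 members measured. The other 150 of 155 counts and medians stayed within 1.5 times or within the SD between probe sets. Of 375 values of single members, 3 moved by more than that SD (Trp53inp1 to 0.03 and 0.10, Ccng1 to -0.36 in polysome RNA, all after averaging probe sets) and 23 changed sign, none of them past 2-fold. The median of the association difference also changed sign, to between 0.01 and 0.08, under 5 alternatives. Member medians ranged from 0.15 to 0.44 in total and from 0.23 to 0.42 in polysome RNA between genotype labels. No paired analysis was possible because the groups share only 1 replicate number; a fit over both RNA fractions would have to take fractions as replicates and was not run.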

Other observations

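Genes that act beside Cdkn1a at the G1 checkpoint mostly read higher in the heterozygote-labelled libraries. Of 14 CDK inhibitors and G1 cyclins 12 reached the floor, and 12 of 12 were above 0 in total and in polysome RNA (all genes 66.1% and 62.9%), with medians of 0.44 and 0.25 against 0.19 and 0.11 for all genes. Above the median gene were 10 and 9 of 12, past 1.5-fold 3 and 1, and past 2-fold none. The 3 in total RNA include Cdkn2a, with the low value of its wild-type total library. Cdkn2c counted as above 0 in polysome RNA at only 0.003. After a loess trend was subtracted the medians were 0.27 and 0.13, with 11 and 10 of 12 above 0. Cdkn1b, the inhibitor p27, read 9.23 and 9.93 in total and 9.25 and 9.84 in polysome RNA (0.69 and 0.59). Ccnd1, cyclin D1, was at 0.67 and 0.37, while its remaining probe sets gave 0.29 to 0.61. Ccnd2, cyclin D2, was at 0.46 and 0.34 at its brightest probe set. Another of its probe sets above the floor gave 1.14 and 1.11, but a further one gave -0.35 and -0.44. The remaining ones were above 0, so the Ccnd2 probe sets disagree in sign. Cdk6 was at 1.18 and 0.86, below the floor on all arrays. Cdkn1c, the inhibitor p57, was at 1.01 between fractions under the wild-type and 0.70 under the heterozygote label.

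The BCL2 family, in which Bbc3 acts, had 6 of 10 measured genes above 0 in each RNA, near the share of all genes (66.1% and 62.9%). Its medians of 0.12 and 0.06 lay below those of all genes (0.19 and 0.11), and 4 and 5 of 10 were above the median gene. After a loess trend was subtracted the medians were -0.10 and -0.06. Bcl2l11, the BH3-only protein Bim, read 8.47 and 9.05 in total and 8.33 and 9.09 in polysome RNA (0.58 and 0.76), with 0.28 and 0.44 at its other probe set above the floor. Bid was at 0.71 and 0.43, but at 0.03 and -0.12 at its other probe set. Bok, a Bax-like protein, was lower, at -0.62 and -0.70, from 1 probe set.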
